A study of Mus musculus with 6 samples.

Results

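The interferon-response genes are 46 mouse genes listed by name as receptors, signalling factors and induced targets of the interferons, of which 45 had a row among the 29616 genes of the deposited table. The expression of Rsad2, the remaining gene, was not analysed here. RNA sequencing was performed on bone cells of mice labelled C57BL/6 (the methods of the study name wild-type C57BL/6J mice), in 3 libraries from control mice and 3 libraries from mice treated with dexamethasone, a synthetic glucocorticoid. Mice were 8 weeks old when treatment began, the daily dose was 0.08 µg/g and treatment lasted 4 weeks, and the label of the other group reads only control. The cells are described in the study as Osteocalcin-positive cells from bones freed of marrow, and the labels name no engineered allele in either group. Whether 1 library holds cells of 1 mouse or of a pool is not given in the sources used here, so the p-values below measure the spread between these libraries.

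Interferons are secreted proteins, and cells release type I interferons when they sense viral or microbial nucleic acids. Type I interferons bind the receptor made of IFNAR1 and IFNAR2, and interferon gamma binds the receptor made of IFNGR1 and IFNGR2. Janus kinases on these receptors then phosphorylate STAT proteins, which enter the nucleus and switch on a broad set of genes. A complex that holds STAT2 and IRF9 acts at interferon-stimulated response elements, and the response to interferon gamma also runs through gamma-activated sites. Glucocorticoids act through the glucocorticoid receptor, a transcription factor well known for restraining inflammatory genes, and in bone interferons are best known for curbing the formation of osteoclasts.

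To determine how these genes stood in dexamethasone-treated mice, normalized read counts were compared between the groups with limma. A gene was termed differentially expressed when its adjusted p-value was under 0.05 and its log2 fold change, given below as the log2 change of dexamethasone against control, was at least 1 in either direction. Of the 42 interferon-response genes whose mean reached 10 normalized counts, 9 were differentially expressed and all 9 were lower with dexamethasone (21.4%). Among all 17442 genes tested, 10.6% were differentially expressed and lower, 11.7% were differentially expressed and higher, and 22.3% were either. By the adjusted p-value alone, 32 of the 42 genes fell and 6 rose, against 35.2% and 37.2% of all genes tested (72.5% in both directions together). The values of the 2 groups did not overlap for 38 of the 42 genes, against 74.7% of all genes tested. The median log2 fold change of the 42 genes was -0.58, with a range from -2.96 to 0.99, and the median of all genes tested was 0.000712. Rescaling all libraries to the same total shifted the median of all genes by -0.114 on the log2 scale, and the median of the 42 genes then stood at -0.69.

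The 9 genes were Xaf1, Ifi44, Ifit1, Gbp3, Isg15, Ifit3, Bst2, Tap2 and H2-K1, in order of the size of the change. Just outside the cut-off on the fold change lay Ifit2 at 0.99 and Gbp2 at -0.90. Ifit2 reached 1.01 and would have counted as higher without control replicate 2, control replicate 3 or dexamethasone replicate 3, so that 10 genes were then differentially expressed. Gbp2 reached -1.01 at the same total. The number of genes that rose by the adjusted p-value was 4 at the same total and 3 after quantile normalization in place of 6, since Ifngr1 and Rnf213, and in the latter case Trim25 as well, no longer rose. The number that fell was 34 at the same total, with Ifnar1 and Eif2ak2 added to the 32, and 36 after quantile normalization, with Irf2 and Rnf213 added as well.

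**Figure D1:**
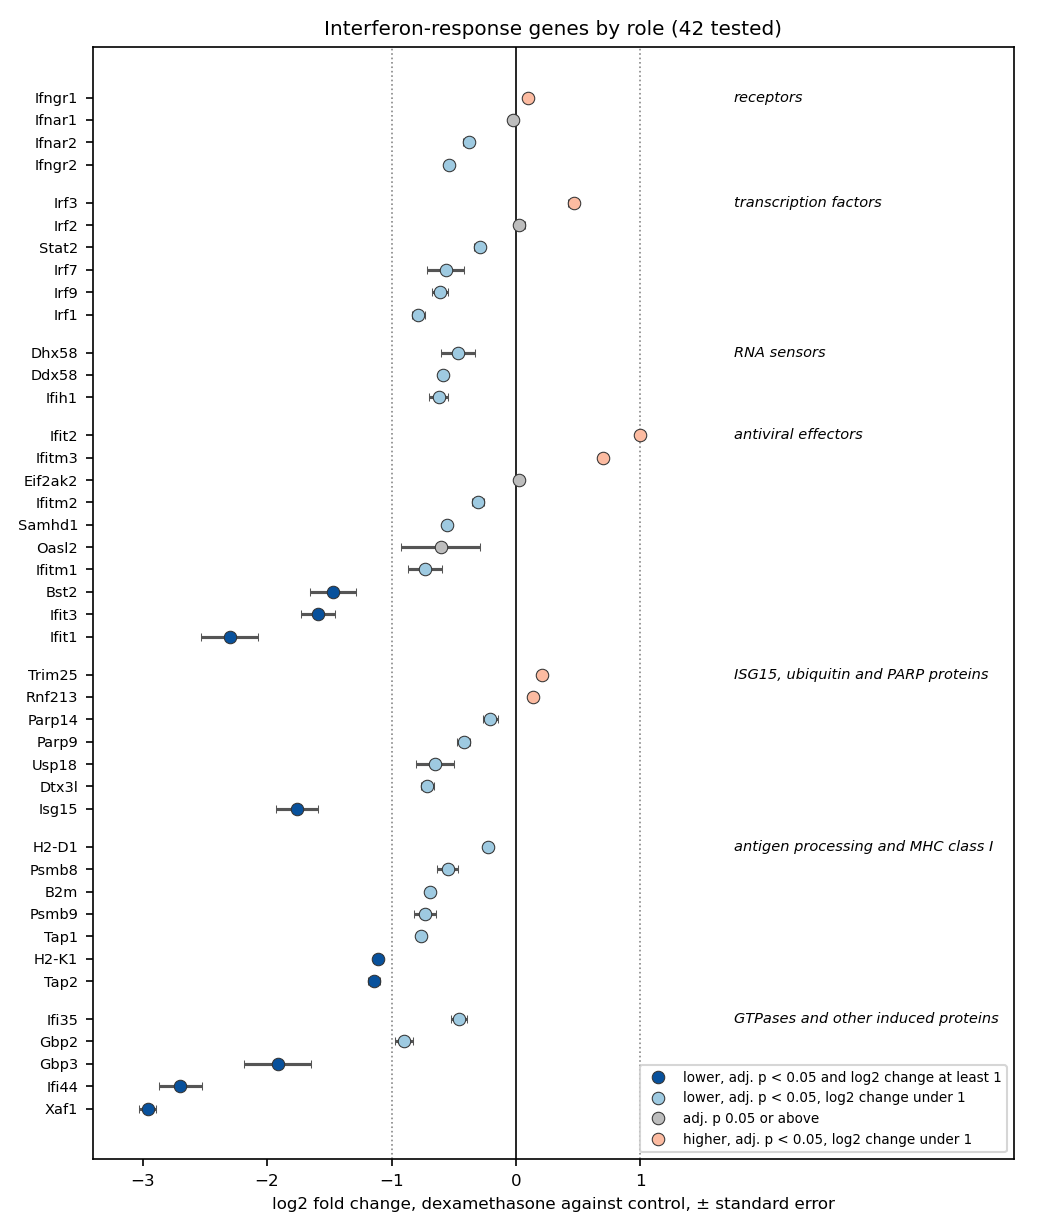
Log2 fold change of each of the 42 tested interferon-response genes (x axis, dexamethasone against control, bars show the standard error), grouped by role, with dotted lines at the cut-offs. Points lie mostly left of 0, from -2.96 for Xaf1 to 0.99 for Ifit2, and 9 lie beyond the left cut-off.

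Cell composition was examined beside these values. Osteoblast markers were present, and 9 of the 10 were differentially expressed and lower with dexamethasone, whereas Spp1 was higher. Of all genes tested, 10.6% were differentially expressed and lower and 11.7% were higher. The 10 osteoblast markers had a median log2 fold change of -1.81, with a range from -3.33 to 5.25 for Spp1. Their sum was 2.28e+06 to 2.42e+06 normalized counts in control and 2.11e+06 to 2.25e+06 in dexamethasone libraries. This sum mixes the rise of Spp1 with the fall of the other 9 and does not measure osteoblast content. Bglap, the Osteocalcin gene, had 98.2 to 122 normalized counts in control and 9.54 to 15.1 in dexamethasone libraries. The 6 pan-hematopoietic markers summed to 6694 to 6955 normalized counts in control and 8098 to 8586 in dexamethasone libraries, most of it from Arhgdib. Of them Cd53 (log2 change 4.11) and Itgb2 (3.20) were differentially expressed and higher, Coro1a (-1.77) and Laptm5 (-1.49) were lower, and Ptprc, the pan-leukocyte marker, stayed at or under 5.81 normalized counts in every library. The 5 macrophage markers in the table summed to 1465 to 1486 normalized counts in control and 1477 to 1667 in dexamethasone libraries, with 3 differentially expressed and higher and 1 lower. Among them Lyz2 had 985 to 1004 normalized counts in control and 336 to 362 in dexamethasone libraries, and Cd68 had 159 to 187 and 521 to 663. The 3 B cell markers and the 2 T and NK cell markers in the table summed to under 10 normalized counts in every library. The plasmacytoid dendritic cell list summed to 326 to 359 and 221 to 227 normalized counts, nearly all of it from Cox6a2, a cytochrome oxidase subunit also known from muscle. All 8 proliferation markers were higher, with sums of 40196 to 43037 in control and 245155 to 258397 in dexamethasone libraries. Smooth muscle markers summed to 140810 to 148417 and 12018 to 13015. Of the 3 tested, 1 was differentially expressed and lower, and the log2 changes ran from -3.54 to 0.06. Chondrocyte markers summed to 5947 to 6402 and 22111 to 24965. Of the 3 tested, 2 were differentially expressed and higher and 1 was lower (-1.23). Osteocyte markers summed to 8220 to 8760 normalized counts in control and 18449 to 19774 in dexamethasone libraries. Of the 4 tested, 1 was differentially expressed and higher, and the log2 changes ran from -0.77 to 7.16. Fibroblast markers summed to 6874 to 7171 and 8874 to 9721. Of the 4 tested, 1 was differentially expressed and higher and 2 were lower, with a median log2 fold change of -0.73. Endothelial markers summed to 387 to 425 and 483 to 518. Of the 5 tested, 1 was differentially expressed and higher and 0 lower, with log2 changes from -0.75 to 1.20. The members of several of these lists went in opposite directions, so a sum does not stand for its cell type. The part of these shifts in the interferon-response values was not tested, and fewer cells of a type and less RNA per cell cannot be told apart in bulk libraries. Depth was 72596611 to 89910728 reads per library.

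Promoter sequences were examined because several of these genes are textbook targets of the interferon-stimulated response element. In RefSeq windows of build GRCm38.p6, from 250 bases before to 50 bases after each transcript start, 39 of the 46 genes had an entry. The response element, taken as GAAA, any 2 bases and GAAA on either strand, occurred in 16 of the 39 (41.0%), and in 3.99% of the 27025 genes with an entry. Among the interferon-response genes with an entry, the letters occurred in 5 of the 8 that were differentially expressed, in 11 of the 27 that fell by the adjusted p-value and in 1 of the 6 that rose. They also occurred in Irf2 and Eif2ak2, which neither fell nor rose by the adjusted p-value, and in Oas1a and Rsad2, which were not tested. The gamma-activated site, as TTCNNNGAA, occurred in 12 of the 39 (30.8%) and in 9.55% of all genes. It occurred in 6 of the 27 that fell and in 2 of the 6 that rose. The palindrome bound by the glucocorticoid receptor, as ACANNNTGT, occurred in 1 of the 39, Gbp3, and in 7.9% of all genes. A gamma-activated site overlaps a response-element match in Bst2 and Ifitm3. These counts describe letters in a window and are not evidence of binding.

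The promoters of 4 differentially expressed genes with the highest counts among those holding the motif are shown first, followed by Ifitm3, which was chosen after its values were seen because it holds the motif and rose. Each is printed 5′ to 3′ on the strand of the gene, from 250 bases before to 30 bases after the transcript start, with matches to the response element in capitals. They lie at chr19:34583279-34583558 (plus strand), chr4:156200789-156201068 (minus strand), chr8:71537443-71537722 (minus strand), chr19:34640639-34640918 (plus strand) and chr7:141010715-141010994 (minus strand).
Ifit3: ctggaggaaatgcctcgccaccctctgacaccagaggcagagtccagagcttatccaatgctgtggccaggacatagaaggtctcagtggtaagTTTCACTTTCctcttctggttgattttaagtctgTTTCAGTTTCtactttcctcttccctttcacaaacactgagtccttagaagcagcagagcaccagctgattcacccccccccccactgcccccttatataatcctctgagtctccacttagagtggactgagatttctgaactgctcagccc
Isg15: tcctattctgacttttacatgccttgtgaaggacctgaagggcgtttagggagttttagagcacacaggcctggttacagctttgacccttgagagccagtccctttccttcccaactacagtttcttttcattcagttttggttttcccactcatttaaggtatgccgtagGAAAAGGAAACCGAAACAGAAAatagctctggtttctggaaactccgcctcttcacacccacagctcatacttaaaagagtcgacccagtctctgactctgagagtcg
Bst2: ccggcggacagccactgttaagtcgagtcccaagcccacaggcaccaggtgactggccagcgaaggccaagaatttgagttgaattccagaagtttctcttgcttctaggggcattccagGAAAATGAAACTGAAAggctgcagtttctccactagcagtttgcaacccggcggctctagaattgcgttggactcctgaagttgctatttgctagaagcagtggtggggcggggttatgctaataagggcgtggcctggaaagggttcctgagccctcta
Ifit1: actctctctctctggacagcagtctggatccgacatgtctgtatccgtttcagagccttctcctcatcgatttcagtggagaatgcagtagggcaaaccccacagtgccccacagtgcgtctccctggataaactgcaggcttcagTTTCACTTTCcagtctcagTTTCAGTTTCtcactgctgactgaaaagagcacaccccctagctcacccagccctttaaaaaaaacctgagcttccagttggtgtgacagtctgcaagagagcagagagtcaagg
Ifitm3: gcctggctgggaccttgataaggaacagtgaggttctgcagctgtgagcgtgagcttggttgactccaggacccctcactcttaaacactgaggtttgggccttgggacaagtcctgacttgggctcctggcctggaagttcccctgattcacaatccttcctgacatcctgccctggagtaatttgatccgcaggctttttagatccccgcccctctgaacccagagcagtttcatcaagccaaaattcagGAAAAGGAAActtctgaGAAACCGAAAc
Counted from the transcript start, the Isg15 promoter holds 3 overlapping matches between bases -78 and -57, and that of Bst2 holds 2 between bases -130 and -115. In Ifit1 and Ifit3 the 2 matches lie apart and upstream of the start, beginning at bases -104 and -85 in Ifit1 and at bases -156 and -122 in Ifit3. In Ifitm3 both matches lie within the transcript, from base 3 to base 12 and from base 20 to base 29, and matches within the transcript were also found in Ddx58 and Ifih1, which fell, and in Eif2ak2.

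**Figure D2:**
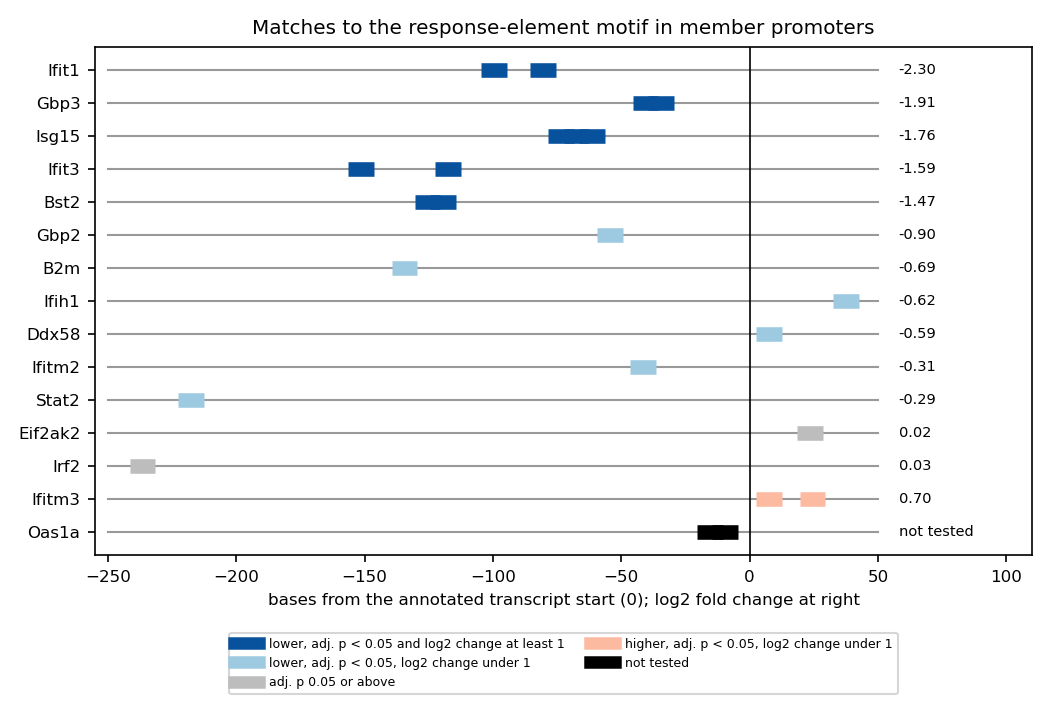
Positions of response-element matches (boxes) in the promoter windows of 15 interferon-response genes in the table (the sixteenth with a match, Rsad2, is not drawn), in bases from the annotated transcript start (x axis), coloured by the outcome of the test, with the log2 fold change at the right. Matches lie before the start in the 5 differentially expressed genes, in B2m, Gbp2, Ifitm2 and Stat2, which fell, and in Irf2 and Oas1a. They lie after it in Ifitm3, which rose, in Ddx58 and Ifih1, which fell, and in Eif2ak2.

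Of the 4 receptor chains, none was differentially expressed, against 22.3% of all genes tested, and the chains of each receptor had unlike values. Ifngr2, the signalling chain of the interferon gamma receptor, had 5672, 5875 and 5561 normalized counts in the 3 control libraries and 3971, 3834 and 3967 in the 3 dexamethasone libraries. It fell from 5703 ± 159 to 3924 ± 78.3 (mean ± SD, n = 3 per group), a log2 change of -0.54 ± 0.0374 (SE, limma adjusted p = 2.46e-12). Ifngr1, the ligand-binding chain, had 2896, 2971 and 2811 in control and 3103, 3079 and 3117 in dexamethasone libraries. Its log2 change of 0.10 (limma adjusted p = 0.0266) was -0.0138 with libraries at the same total and -0.0589 with quantile normalization. Without control replicate 1, control replicate 3 or dexamethasone replicate 3 the adjusted p-value of Ifngr1 was 0.056, 0.147 and 0.0721. For the type I receptor, Ifnar2 had 2018, 2041 and 2009.7 in control and 1519.6, 1552 and 1593 in dexamethasone libraries, a log2 change of -0.38 (limma adjusted p = 3.91e-08). Of the exon bases of Ifnar2, 9.46% are shared with a gene on its own strand. Ifnar1 had 6249, 6809 and 6522 normalized counts in control and 6702, 6182 and 6331 in dexamethasone libraries, a log2 change of -0.03 (limma adjusted p = 0.553) with overlapping groups. It fell with libraries at the same total (-0.14, limma adjusted p = 0.000303) and with quantile normalization (-0.23, limma adjusted p = 7.81e-07).

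Of the 6 transcription factors, 4 fell and 1 rose by the adjusted p-value, and none was differentially expressed. Among all genes tested, 35.2% fell and 37.2% rose by the adjusted p-value. Irf1, an early target of interferon gamma, had 1720.5, 1949 and 1849.8 normalized counts in control and 1075, 1027 and 1098 in dexamethasone libraries. The lowest control library stood well above the highest dexamethasone library, and the log2 fold change was -0.78 ± 0.0529 (SE, limma adjusted p = 1.43e-12). Irf9, the DNA-binding part of the complex with STAT2, had 778, 757 and 838 normalized counts in control and 527, 523 and 502 in dexamethasone libraries, a log2 change of -0.61 (limma adjusted p = 8.15e-09). Stat2 had 2650.4, 2951 and 2751 in control and 2357, 2218 and 2242 in dexamethasone libraries, a smaller change of -0.29 (limma adjusted p = 3.39e-06). Irf7, which amplifies the production of interferon alpha, was the gene with the fewest reads here, at 121, 162 and 135 in control and 99.2, 83.9 and 97.7 in dexamethasone libraries, and had a log2 change of -0.57 (limma adjusted p = 0.00134). Irf3, the latent factor activated by nucleic acid sensors, ran the other way. It had 1811, 1896 and 1781 in control and 2627, 2373 and 2567 in dexamethasone libraries and rose from 1829.6 ± 59.7 to 2522 ± 133 (mean ± SD, n = 3 per group), a log2 change of 0.46 (limma adjusted p = 2.96e-09). Irf2, a competitor of IRF1 on DNA, had 2538, 2554 and 2562 normalized counts in control and 2803, 2439 and 2573 in dexamethasone libraries with overlapping groups, and its log2 change of 0.03 (limma adjusted p = 0.603) was -0.0863 at the same total and -0.125 after quantile normalization.

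All 3 cytosolic sensors of viral RNA fell, by 0.47 to 0.62 on the log2 scale. By the adjusted p-value 35.2% of all genes tested fell. Ddx58, which encodes RIG-I, was the most abundant, with 4467, 4366 and 4389 normalized counts in control and 2955, 2883 and 2943 in dexamethasone libraries, a log2 change of -0.59 ± 0.0375 (SE, limma adjusted p = 4.35e-13). Ifih1, which encodes MDA5, had 639.9, 586 and 558 in control and 391, 383 and 383 in dexamethasone libraries, a change of -0.62 (limma adjusted p = 5.1e-08). Dhx58, which encodes the regulatory relative LGP2, had 172, 154 and 127 normalized counts in control and 101, 116 and 108 in dexamethasone libraries, a change of -0.47 (limma adjusted p = 0.00429). The groups did not overlap for any of the 3 genes, which held for 74.7% of all genes tested.

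The 14 antiviral effectors held the widest spread of responses, with 3 differentially expressed and lower, 3 more that fell by the adjusted p-value and 2 that rose among the 10 tested. By the adjusted p-value 60% of the 10 fell and 20% rose, against 35.2% and 37.2% of all genes tested. The share differentially expressed and lower was 30%, against 10.6% of all genes tested. Within the Ifit genes, whose products bind foreign RNA, the directions were opposite. Ifit1 had 97.3, 94.9 and 90.5 normalized counts in control libraries and 16.2, 25.1 and 15.1 in dexamethasone libraries. It fell from 94.2 ± 3.45 to 18.8 ± 5.46 (mean ± SD, n = 3 per group) and was 5.01-fold lower, a log2 change of -2.30 ± 0.230 (SE, limma adjusted p = 2.4e-09). Ifit3 had 189, 207 and 203 in control and 64.9, 61.0 and 70.9 in dexamethasone libraries, a log2 change of -1.59 (limma adjusted p = 1.43e-10). The count of Ifit3 is uncertain, because 58.9% of the 75-base positions of its exons occur in no other gene and the rest are shared mainly with Ifit3b. Ifit2 had more reads than either, 2347, 2522 and 2509.7 in control and 4982, 4902 and 4792 in dexamethasone libraries. It rose from 2459 ± 97.8 to 4892 ± 95.6 (mean ± SD, n = 3 per group), a log2 change of 0.99 ± 0.0403 (SE, limma adjusted p = 4.66e-17). The values of Ifit2 in the dexamethasone libraries were all far above those in the control libraries, whereas for Ifit1 and Ifit3 they were all far below.

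The Ifitm genes encode small membrane proteins that block the entry of enveloped viruses, and they too were split. Ifitm3 had 8243, 8950.4 and 8716 normalized counts in control and 13989.9, 13393 and 14698 in dexamethasone libraries. It rose from 8636 ± 360.1 to 14027 ± 653 (mean ± SD, n = 3 per group), a log2 change of 0.70 ± 0.0396 (SE, limma adjusted p = 4.25e-14). Ifitm1 had 144, 166 and 185 in control and 86.8, 107 and 103 in dexamethasone libraries and fell, with a log2 change of -0.73 (limma adjusted p = 5.03e-05). Ifitm2 had 2182, 2398 and 2290.1 normalized counts in control and 1785, 1795 and 1971 in dexamethasone libraries, a change of -0.31 (limma adjusted p = 4.48e-06). Of the exon bases of Ifitm2, 40.9% are shared with a predicted gene on its own strand, so its count is uncertain. Ifitm3 and Ifit2 still rose with libraries at the same total or quantile-normalized.

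Bst2, which encodes the virion tether tetherin, had 120.3, 118 and 88.8 normalized counts in control and 40.1, 34.9 and 40.7 in dexamethasone libraries. Its log2 fold change was -1.47 ± 0.185 (SE, limma adjusted p = 1.31e-07), with control replicate 3 the lowest control library and still well above every dexamethasone library. Samhd1, a hydrolase that depletes deoxynucleotides, had 10512, 10913 and 10597 in control and 7519, 6974 and 7303 in dexamethasone libraries, a change of -0.56 (limma adjusted p = 8.66e-13). Eif2ak2, which encodes the RNA-activated kinase PKR, had 7609.8, 7888 and 7499 normalized counts in control and 8039, 7716 and 7636 in dexamethasone libraries, and the groups overlapped. Its log2 change of 0.02 (limma adjusted p = 0.553) turned negative with libraries at the same total (-0.0896), in edgeR (-0.00118) and with quantile normalization (-0.188). Oasl2, a relative of the oligoadenylate synthetases, had 30.3, 25.4 and 22.8 normalized counts in control and 15.3, 11.99 and 25.6 in dexamethasone libraries, with a log2 change of -0.60 (limma adjusted p = 0.0916), which was -0.89 (limma adjusted p = 0.0216) without dexamethasone replicate 3.

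The other 3 effectors in the table had means under 10 normalized counts and were left out of the test. Mx2, a gene of the dynamin-like GTPase family, had 17, 10 and 11 reads in control and 1, 1 and 1 in dexamethasone libraries. The summed control reads were 11.0 times those with dexamethasone after scaling (95% exact interval 3.50 to 55.8, counting error only). Mx1, whose gene is defective in most laboratory strains, had 1, 2 and 0 reads in control and 0, 0 and 1 in dexamethasone libraries, never above the limit of 3 reads, and a difference between the groups was not detectable at this depth. Oas1a, an oligoadenylate synthetase, had 8, 6 and 9 reads in control and 10, 4 and 9 in dexamethasone libraries, and 52.4% of its 75-base positions occur in no other gene.

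**Figure D3:**
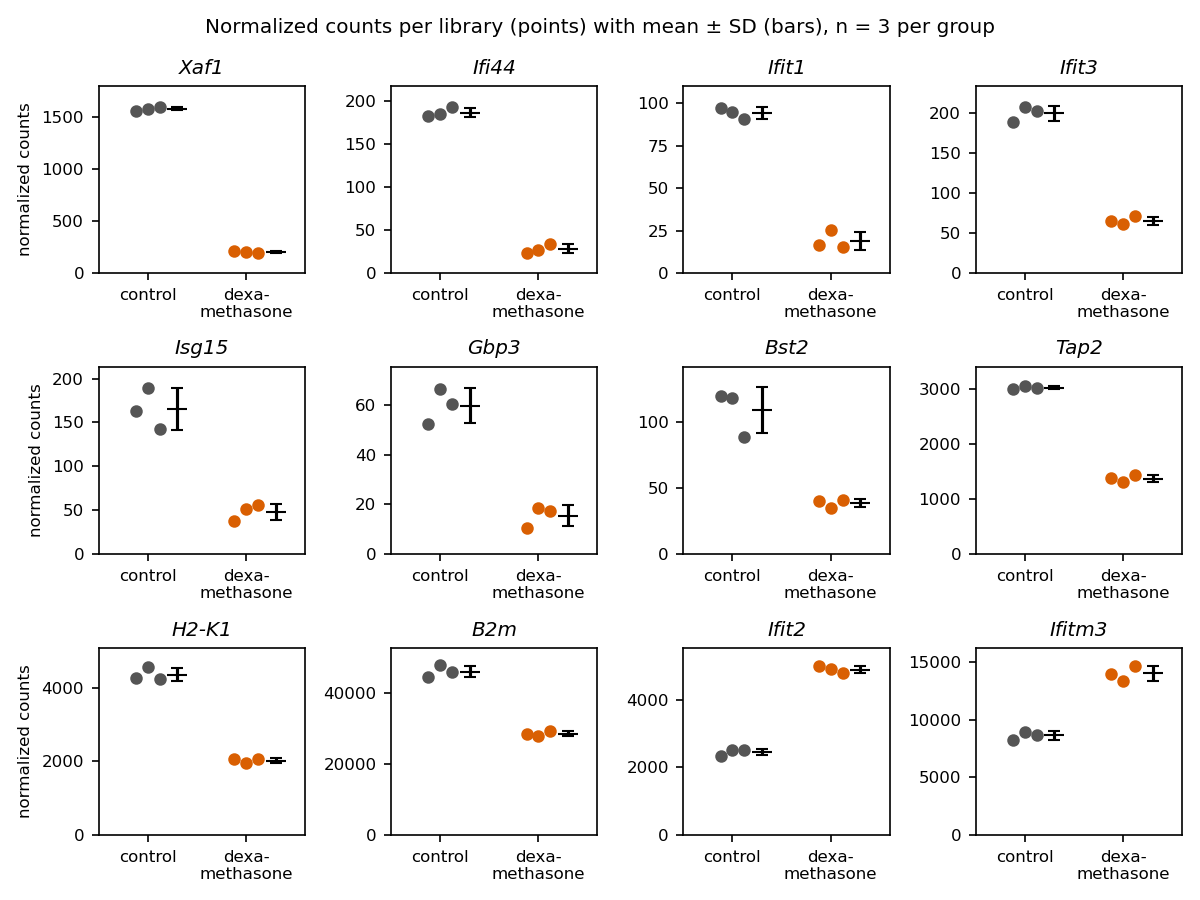
Normalized counts (y axis, from 0) of 12 interferon-response genes in each control and dexamethasone library, with mean ± SD bars (n = 3 per group). The groups are apart in every panel, lower with dexamethasone in 10 of them and higher for Ifit2 and Ifitm3.

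ISG15 is a ubiquitin-like protein that is attached to other proteins during the interferon response, and the group around it holds 7 genes. Isg15 itself had 163, 189.8 and 142 normalized counts in control and 38.2, 51.2 and 55.8 in dexamethasone libraries. It fell from 165 ± 23.8 to 48.4 ± 9.16 (mean ± SD, n = 3 per group), a log2 change of -1.76 ± 0.171 (SE, limma adjusted p = 1.57e-09). Usp18, which removes ISG15 from proteins and also damps the type I receptor, had 152, 136 and 109.8 in control and 84.9, 91.6 and 74.4 in dexamethasone libraries, a change of -0.65 (limma adjusted p = 0.000561). For both genes every dexamethasone library lay below every control library. Dtx3l and Parp9 encode partner proteins, a ubiquitin ligase and a PARP family member, and had log2 changes of -0.71 and -0.42. Dtx3l had 2068, 2195 and 2039 normalized counts in control and 1321, 1218 and 1310.5 in dexamethasone libraries (limma adjusted p = 2.31e-12). The exons of these 2 genes overlap on opposite strands over 8.0% of Dtx3l and 9.4% of Parp9. Parp14 had a change of -0.21 (limma adjusted p = 0.00372). The ubiquitin ligases Rnf213 and Trim25 had small values in the other direction. Rnf213 had 15557, 14839 and 15824 in control and 17680.5, 16720.0 and 16431 in dexamethasone libraries, a log2 change of 0.14 (limma adjusted p = 0.00219) that was -0.0834 after quantile normalization. Trim25, which modifies RIG-I, had 4741, 4765 and 4669.7 normalized counts in control and 5793, 5116 and 5476 in dexamethasone libraries, a change of 0.21 (limma adjusted p = 8.96e-05).

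All 7 genes of antigen processing and MHC class I fell, and 2 of them (28.6%), Tap2 and H2-K1, were differentially expressed. Of all genes tested, 35.2% fell by the adjusted p-value and 22.3% were differentially expressed, 10.6% of them lower and 11.7% higher as shares of all. The group covers successive steps of class I presentation, from the immunoproteasome through the peptide transporter to the presenting molecule. Psmb8 and Psmb9, catalytic subunits of the immunoproteasome, had log2 changes of -0.55 (limma adjusted p = 3.39e-06) and -0.73 (limma adjusted p = 6.74e-08). Psmb9 had 361, 382 and 379 normalized counts in control and 231, 216 and 228 in dexamethasone libraries. Tap1 and Tap2 encode the 2 chains of the peptide transporter. Tap2 had 2986, 3051 and 3017 in control and 1376, 1298 and 1431 in dexamethasone libraries, falling from 3018 ± 32.7 to 1369 ± 66.9 (mean ± SD, n = 3 per group), a log2 change of -1.14 ± 0.0455 (SE, limma adjusted p = 3.08e-17). Of the exon bases of Tap2, 18.5% face genes on the other strand. Tap1 had 4703, 5199 and 4983 normalized counts in control and 3011, 2772 and 2980.2 in dexamethasone libraries, a change of -0.76 (limma adjusted p = 4.72e-14).

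The class I heavy chains had changes of unlike size. H2-K1 had 4261, 4572 and 4242 normalized counts in control and 2060.4, 1948 and 2051 in dexamethasone libraries, falling from 4358 ± 185 to 2019.8 ± 62.5 (mean ± SD, n = 3 per group), a log2 change of -1.11 ± 0.0424 (SE, limma adjusted p = 1.35e-17). H2-D1 had 23473, 24492 and 23397 in control and 21299.6, 19103 and 20763 in dexamethasone libraries, a log2 change of -0.22 ± 0.0399 (SE, limma adjusted p = 2.18e-05). The difference between the 2 genes was not tested, and 98.7% and 93.1% of their 75-base positions occur in no other gene. B2m, the light chain shared by class I molecules, had 44609, 47809 and 45812 normalized counts in control and 28469, 27879 and 29326 in dexamethasone libraries. It fell, with a log2 change of -0.69 ± 0.0380 (SE, limma adjusted p = 2.44e-14).

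The last group, of guanylate-binding GTPases and other induced proteins, held the largest changes among the 42 genes, and all 5 genes fell. By the adjusted p-value 35.2% of all genes tested fell. Xaf1, a partner of the apoptosis inhibitor XIAP, had 1559, 1579 and 1591 normalized counts in control and 211, 203 and 192 in dexamethasone libraries. It fell from 1576 ± 16.1 to 202 ± 9.51 (mean ± SD, n = 3 per group) and was 7.81-fold lower, a log2 change of -2.96 ± 0.0674 (SE, limma adjusted p = 2.77e-22). Ifi44 had 183, 185 and 193 in control and 23.8, 27.3 and 33.7 in dexamethasone libraries and was 6.61-fold lower, a log2 change of -2.70 ± 0.174 (SE, limma adjusted p = 6.07e-13). Gbp3, a GTPase of pathogen defence, had fewer reads, at 52.3, 66.5 and 60.6 in control and 10.5, 18.5 and 17.4 in dexamethasone libraries, and a log2 change of -1.91 ± 0.267 (SE, limma adjusted p = 6.7e-07). The replicates of Xaf1 lay close together in each group, whereas those of Gbp3 spread by a larger share of their mean. Gbp2, the more abundant relative, had 649, 675 and 631 normalized counts in control and 359, 349 and 338 in dexamethasone libraries, a change of -0.90 (limma adjusted p = 3.6e-11). Ifi35 had 738, 805 and 784 in control and 559, 547 and 588 in dexamethasone libraries, a change of -0.46 (limma adjusted p = 7.86e-07), with 16.8% of its exon bases overlapped by a gene on the opposite strand.

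**Figure D4:**
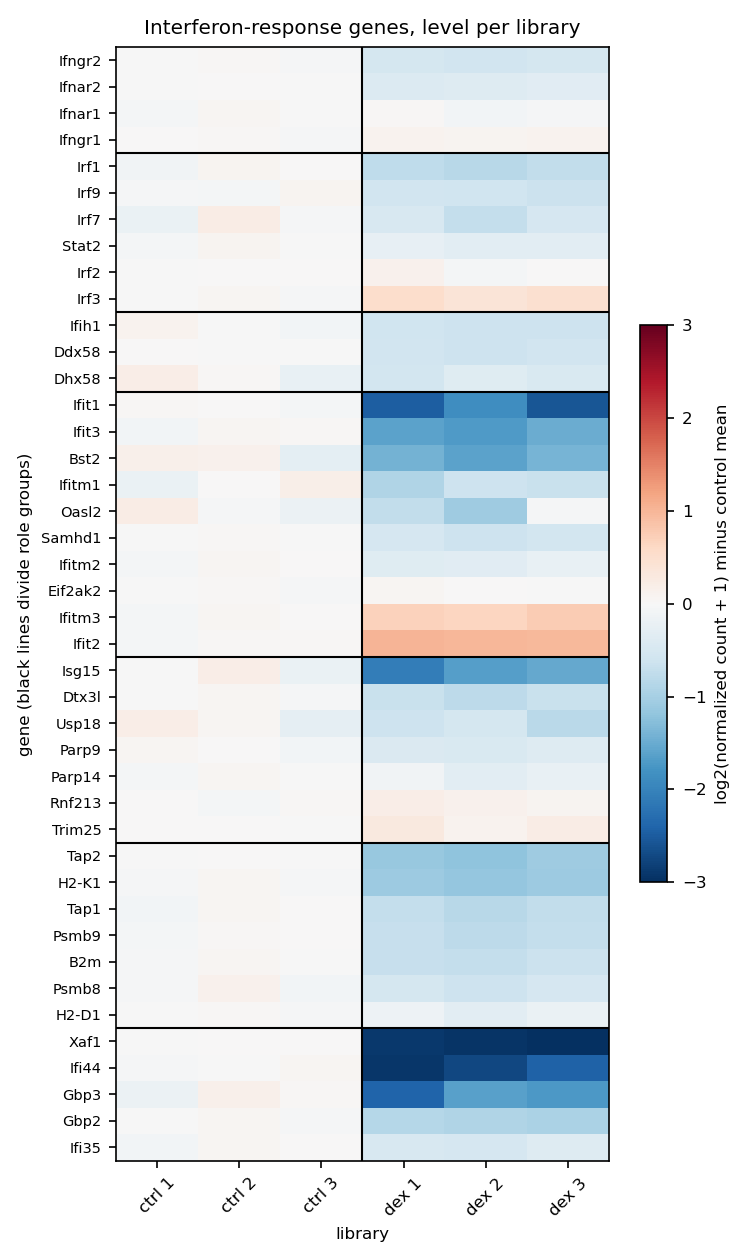
Log2(normalized count + 1) of the 42 tested genes in each library after subtraction of the gene's control mean (colour scale from -3 to 3), with black lines between role groups. Control columns are pale, and in the dexamethasone columns most rows are blue, with Ifit2, Ifitm3 and Irf3 red.

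Levels of different genes were compared as mean normalized counts per kilobase of exon. B2m stood highest at 53577 in control and 33207 in dexamethasone libraries, followed by Ifitm3 at 12738 and 20689 and by H2-D1 at 9223 and 7906. On this scale H2-K1, at 1483 and 687, stood below H2-D1 in both groups. The Ifit genes spanned a wide range, with Ifit2 at 626 and 1246 and Ifit1 at 35.5 and 7.08, and Isg15 stood at 219 and 64.0. Mx1 was the lowest at 0.253 and 0.102.

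Other genes of the pathway, 140 by list, were then examined, of which 115 had a row and 87 were tested. Among them were 9 differentially expressed and higher (10.3%) and 16 lower (18.4%), against 11.7% and 10.6% of all genes tested. By the adjusted p-value 24 rose (27.6%) and 41 fell (47.1%), against 37.2% and 35.2% of all genes tested. Their median log2 fold change was -0.10. Of the interferon genes themselves, 4 had a row and none was tested. Ifnb1, the gene of interferon beta, had 2 reads in 1 control and 1 read in 1 dexamethasone library and 0 in the others, and the largest count among the 4 genes was 10 reads, for Ifnk. No difference in interferon transcripts was detectable at this depth.

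The kinases, STATs and feedback inhibitors that carry the signal stood close to 0, with a median log2 fold change of -0.04. None of the 12 genes was differentially expressed, against 22.3% of all genes tested. Jak1, the kinase shared by both receptors, had 19046, 19864 and 19652 normalized counts in control and 19105, 18264 and 18234 in dexamethasone libraries, a log2 change of -0.07 (limma adjusted p = 0.061) that was -0.19 (limma adjusted p = 1.79e-06) at the same total. Stat3 had 11882, 12823 and 11982 in control and 10855, 9499 and 9978 in dexamethasone libraries, a change of -0.28 (limma adjusted p = 3.49e-06). Among the other IRF genes, Irf5, a factor downstream of Toll-like receptors, had 601, 662 and 630.1 normalized counts in control and 1308, 1264 and 1319.8 in dexamethasone libraries, a log2 change of 1.04 (limma adjusted p = 2.65e-14). Irf5 was under the cut-off with libraries at the same total (0.92) or quantile-normalized (0.95). The binding partners Irf2bp2 and Irf2bp1 had log2 changes of -0.06 (limma adjusted p = 0.16) and 0.01 (limma adjusted p = 0.835), the latter negative with libraries at the same total (-0.10) or quantile-normalized (-0.14).

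Among 12 tested genes of nucleic acid sensing, 2 were differentially expressed (16.7%, against 22.3% of all genes tested) and both were higher. By the adjusted p-value 6 of the 12 rose and 3 fell, against 37.2% and 35.2% of all genes tested. Cgas, which encodes the cytosolic DNA sensor, had 369, 383 and 389 normalized counts in control and 1776, 1553 and 1636 in dexamethasone libraries, a log2 change of 2.12 ± 0.0624 (SE, limma adjusted p = 5.82e-20). Sting1, the adaptor that receives its messenger, had 239, 266 and 257 normalized counts in control and 829, 804 and 756 in dexamethasone libraries, a log2 change of 1.65 ± 0.0760 (SE, limma adjusted p = 6.59e-16). Cgas and Sting1, of the DNA-sensing arm, were named for the largest changes of this list, and they rose while the 3 RNA sensors fell. The adaptor of the RNA sensors, Mavs, had a log2 change of 0.33 (limma adjusted p = 8.89e-08), and the kinase Tbk1 one of 0.18 (limma adjusted p = 0.000108) that was -0.00357 after quantile normalization.

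Of 36 further tested genes induced by type I interferon, 6 were differentially expressed in each direction (16.7% each), with a median log2 fold change of -0.06. The shares among all genes tested were 11.7% higher and 10.6% lower. The 6 that were higher were Ifi207, Slfn9, Oas3, Slfn2, Ifi204 and Slfn8. Ifi207, of a family of interferon-inducible DNA-binding proteins, had 139, 158 and 163 normalized counts in control and 5599, 5187 and 5353 in dexamethasone libraries, a log2 change of 5.13 ± 0.0633 (SE, limma adjusted p = 2.8e-27). Its relative Ifi204 had a log2 change of 2.59 (limma adjusted p = 8.89e-25), and 79.2% of its 75-base positions occur in no other gene. Slfn9, of the Schlafen family, had 2053, 2274 and 2256 in control and 23150.1, 21010.3 and 21014 in dexamethasone libraries, a log2 change of 3.31 ± 0.0438 (SE, limma adjusted p = 8.79e-27). The most abundant gene of the list, Zc3hav1, which encodes an antiviral zinc-finger protein, had a change of 0.43 (limma adjusted p = 1.44e-10).

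The 6 that were lower were Ifit3b, Ifi27l2a, Uba7, Trim34a, Parp10 and Ube2l6. Uba7 and Ube2l6 encode the activating and conjugating enzymes of ISG15, and they were named after their values were seen. Uba7 had a log2 change of -1.34 (limma adjusted p = 1.99e-11) and Ube2l6 one of -1.02 (limma adjusted p = 5.27e-14), the same direction as Isg15. Ifit3b had 68, 48 and 61 reads in control and 2, 3 and 1 in dexamethasone libraries. The summed control reads were 25.7 times those with dexamethasone after scaling (95% exact interval 11.6 to 70.9). Ifit3b passed the limit on the mean through the control libraries alone, and 64.3% of its 75-base positions occur in no other gene.

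The GTPases and chemokines induced by interferon gamma stood lowest of these lists, with 8 of 10 tested genes differentially expressed and lower, none higher, and a median log2 fold change of -1.49. The shares among all genes tested were 10.6% lower and 11.7% higher. Irgm1, an immunity-related GTPase, had 7448, 7656 and 7205 normalized counts in control and 2229, 2132 and 2133 in dexamethasone libraries, a log2 change of -1.78 ± 0.0388 (SE, limma adjusted p = 1.12e-22). Ifi47, of the same family, had 1248, 1384 and 1275 normalized counts in control and 529, 539.6 and 585 in dexamethasone libraries, a change of -1.24 (limma adjusted p = 3.04e-15). Iigp1 had 66.1, 82.2 and 67.7 in control and 9.54, 9.81 and 6.98 in dexamethasone libraries, and Gbp6 had 43, 43 and 31 reads in control and 2, 1 and 0 in dexamethasone libraries. These 2 genes, both among the 8, and Gbp9 passed the limit of 10 on the mean only through the control libraries. With at least 10 in every library the median of the list was -1.11. For Gbp6, 44.8% of the 75-base positions occur in no other gene. The chemokines Cxcl10 and Ccl5 had at most 10 reads in any library and were not tested.

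Of 14 further tested genes of antigen processing and MHC, 10 fell and 3 rose by the adjusted p-value, with a median log2 fold change of -0.50. Across all genes tested, 35.2% fell and 37.2% rose. Tapbp, which encodes tapasin, the bridge between the peptide transporter and class I molecules, had 11100.3, 11889.8 and 11189 normalized counts in control and 4868, 4410.3 and 4539.5 in dexamethasone libraries. It fell, with a log2 change of -1.31 ± 0.0403 (SE, limma adjusted p = 1.46e-19), with 24.9% of its exon bases overlapped on the opposite strand. Cd74, the invariant chain of class II molecules, had 114, 95.9 and 134 normalized counts in control and 28.6, 24.0 and 32.6 in dexamethasone libraries, a log2 change of -1.97 (limma adjusted p = 2.9e-09). The chaperones Pdia3 and Calr, also used in general protein folding, had changes of -0.17 (limma adjusted p = 0.000335) and -0.26 (limma adjusted p = 8.21e-07). The 3 genes that rose were Nlrc5, the class I transactivator, and the class I relatives H2-T23 and H2-T22, at 0.32, 0.42 and 0.17, named after their values were seen.

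**Figure D5:**
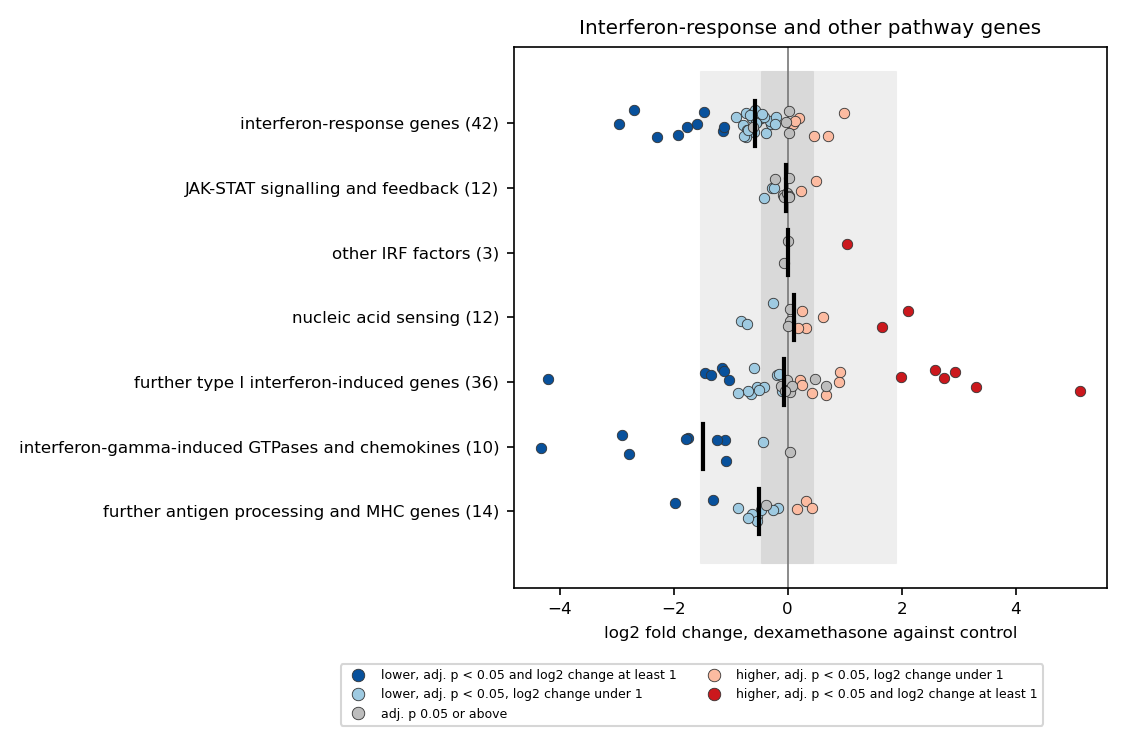
Log2 fold changes (x axis, dexamethasone against control) of the interferon-response genes and of 6 lists of other pathway genes, 1 point per tested gene, with list medians as black bars and the number tested in parentheses. The dark band runs from the 25th to the 75th percentile of all tested genes (-0.455 to 0.443) and the light band from the 5th to the 95th (-1.51 to 1.89), and the list of interferon-gamma-induced GTPases has the lowest median, -1.49.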

How the data were processed

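RNA of 3 control and 3 dexamethasone libraries was prepared by the authors with a stranded mRNA kit and sequenced on a NovaSeq instrument. Per the submitters' processing notes, STAR 2.7.10a, DESeq2 1.36.0 and genome build GRCm39 were used. Which annotation and which strand option were used for counting is not given in the sources used here. The deposited values are a signal: read counts per gene divided by 1 size factor per library. They were whole multiples of 1 read for 100% of values within a tolerance of 0.01, so reads were recovered for count-model alternatives and for depth. Of 29616 identifiers, 28087 had a symbol in GENCODE M21, which also gave exon lengths and overlaps. Promoters were taken from RefSeq on GRCm38.p6, and no coordinates were converted.

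Genes whose mean reached 10 normalized counts were tested (17442) with limma 3.58.1 on log2(normalized count + 1) in R 4.3.3, with mean-variance trend and Benjamini-Hochberg adjustment. Fold changes are on this scale, which understates those of genes with few reads. The genes and lists were chosen with earlier results of these data known, and are described by counts and medians without a set test. Values per library are printed for up to 3 genes with the highest mean and up to 3 differentially expressed genes with the largest change in each role group, and up to 2 of each in the other lists. Other genes given per library were chosen after their values were seen. Uncertain counts were judged by the share of 75-base exon positions found in no other gene. Intervals are 95% exact (Clopper-Pearson), and they and the limit of 3 reads cover counting error only. Libraries with the same replicate number showed no positive correlation of deviations (-0.0999, -0.105 and -0.0199), which cannot tell whether libraries were paired. The methods of the study state that controls were littermates, and the litter of each library is not given in the sources used here. Replicates differed beyond sampling noise (chi-square per degree of freedom 3.52 to 29.6). Tested on simulated data of 17445 genes with 200 changed, limma recovered 98.5% of the changed genes and called 2 others. In the libraries themselves 3894 of 17442 genes were differentially expressed, and recovery with that many changed genes was not tested. Alternatives comprised other pseudocounts, filters and scalings, limma without trend, edgeR 4.0.16, DESeq2 1.42.0, a replicate block and leaving out each library.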

Additional observations from a re-analysis of the deposited data

How the results depend on the processing

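Of 1060 values of 63 named genes under the alternatives, 1038 kept their direction and stayed differentially expressed or not. Of these, 21 values of 8 genes crossed the adjusted p-value of 0.05 alone. The cause of the other shifts was not tested. The number of differentially expressed genes among all tested was 2170 (1350 higher, 820 lower) where the mean had to reach 100 and fewer genes were tested, 12645 (6497 higher, 6148 lower) by the adjusted p-value alone, and 3888 to 3922 (1953 to 2099 higher, 1795 to 1942 lower) when each library was left out. Among the interferon-response genes the corresponding numbers were 38 (6 higher, 32 lower) by the adjusted p-value alone and 9 to 10 (0 to 1 higher, 9 lower) with a library left out. They were 6 at a mean reaching 100, 10 without a filter and 10 at the same total, all lower. By the adjusted p-value alone 3 rose and 36 fell after quantile normalization, 4 rose and 34 fell at the same total, and 5 to 6 rose and 32 to 33 fell with a library left out. The replicate block, which would treat equal replicate numbers as pairs, gave 3897 differentially expressed genes in all, 9 among the interferon-response genes. With it Ifngr1 no longer rose (adjusted p = 0.0767), and no other named gene crossed the adjusted p-value of 0.05 or the cut-off on the fold change.

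Medians of the log2 fold change at the same total were -0.69 (interferon-response genes), -0.32 (receptors), -0.54 (transcription factors), -0.70 (RNA sensors), -0.69 (antiviral effectors), -0.53 (ISG15 group), -0.84 (antigen processing), -2.02 (GTPases and other), -0.15 (JAK-STAT), -0.10 (other IRF), -0.00749 (nucleic acid sensing), -0.18 (further type I), -1.60 (interferon-gamma-induced) and -0.62 (further antigen processing). After quantile normalization they were -0.38 (receptors), -0.53 (ISG15 group), -1.80 (GTPases and other), -0.14 (JAK-STAT), -0.14 (other IRF), 0.0424 (nucleic acid sensing), -0.12 (further type I) and -0.60 (further antigen processing). At a mean of at least 100 they were -0.31 (antiviral effectors), -1.80 (GTPases and other), 0.18 (nucleic acid sensing), -0.10 (further type I) and -1.11 (interferon-gamma-induced). Without a filter they were 0.18 (nucleic acid sensing), 0.0204 (further type I) and -1.11 (interferon-gamma-induced), and the last was also -1.11 with at least 10 in every library. A pseudocount of 5 gave -1.68 (GTPases and other) and -1.22 (interferon-gamma-induced). For GTPases and other, edgeR gave -1.99 and DESeq2 -1.97. With a library left out, the ranges were -0.59 to -0.52 (interferon-response genes), -0.47 to -0.35 (transcription factors), -0.66 to -0.45 (antiviral effectors), -0.46 to -0.39 (ISG15 group), -2.06 to -1.67 (GTPases and other), -0.044 to 0.0728 (other IRF), -0.093 to -0.0348 (further type I), -1.80 to -1.27 (interferon-gamma-induced) and -0.56 to -0.46 (further antigen processing).

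Directions turned for 7 genes. Ifnar1 was 0.00385 without control replicate 2 and -0.0603 to 0.00385 over the libraries left out. At the same total and after quantile normalization, Ifngr1 was -0.0138 and -0.0589, Irf2 -0.0863 and -0.125, Eif2ak2 -0.0896 and -0.188, and Irf2bp1 -0.10 and -0.14. After quantile normalization Rnf213 was -0.0834 and Tbk1 -0.00357. In edgeR, Eif2ak2 was -0.00118 and Irf2bp1 -0.0103. With a library left out, Irf2 was -0.0261 (without dexamethasone replicate 1) to 0.0739, and Irf2bp1 was -0.0171 without control replicate 1 and ranged from -0.044 (without dexamethasone replicate 1) to 0.0728. Genes with few reads, such as Mx1, Oas1a and the interferon genes, were limited by depth.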
